A study of Mus musculus with 104 samples.

Results

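DNA methylation at CpGs was compared between the heart and the muscle of 20-day-old (P20) mice, 2 striated muscle tissues that contract with related proteins but arise in different parts of the embryo. The comparison took every CpG that had the same position in the heart and the muscle tables of a reduced representation bisulfite sequencing (RRBS) time course and a value in at least 3 libraries of each tissue. This left 24134 of the 31839 CpGs found in both tables, and of the 67766 CpGs found in either of them. All libraries came from C57BL/6 mice by the labels (C57BL/6J in the study's methods) with no treatment, with 5 heart libraries (replicates 1 to 5) and 4 muscle libraries (replicates 1, 2, 3 and 5) among the 104 libraries of the series. For comparison, heart and muscle libraries of P1 (4 and 5), P5 (4 and 3) and P15 (5 and 4) and 5 liver libraries of P20 from the same time course were used. The labels call the second tissue muscle and do not say which muscle was taken, and neither sex nor a shared litter is given for single libraries. Nothing in the labels states that each library came from a separate animal, so the tests measure the spread between these libraries.

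Methylation of a cytosine that precedes a guanine is laid down and copied by DNA methyltransferases, and it tends to be high over most of the genome and low at active promoters and enhancers. Regulatory elements used in only one tissue are often less methylated there than in others. Cardiac muscle cells are specified by factors such as GATA4, NKX2-5, TBX5 and HAND2, whereas skeletal muscle cells are specified by the MyoD family, which binds E-boxes, short sites of the form CANNTG. Factors of the GATA family bind sites with a GATA core, of which AGATAA is a common form. RRBS reads DNA next to MspI cut sites, so CpG-rich fragments are favoured. Each value is the share of reads that were methylated at a CpG in bulk tissue, and a change of methylation within cells cannot be told apart from a different mixture of cell types.

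The number of values differed widely between libraries. At the tested CpGs, heart replicate 5 lacked 65.5% of values, heart replicate 4 lacked 57.4% and muscle replicate 2 lacked 42.9%, against 0.00829% to 8.99% in the other 6 libraries. As a result, 30.4% of the tested CpGs rested on 3 heart and 3 muscle values, and 2743 had a value in all 9 libraries. Transcripts were not measured, so the tissues were checked against libraries of other ages. Each of the 5 heart libraries lay nearer to the mean heart of P1, P5 and P15 (9.30 to 11.8 percentage points of mean absolute difference per CpG) than to the mean muscle (12.9 to 14.3), and each of the 4 muscle libraries lay nearer to muscle (7.65 to 14.3) than to heart (10.3 to 15.9). Muscle replicate 3 was the farthest from its own tissue, at 14.3 percentage points from muscle and 15.9 from heart. Within a tissue no pair of libraries held identical data, since at most 6.33% of shared CpGs had equal values in any such pair. Read counts per CpG were not used here, so beyond the minimum of 10 reads the depth of each single value is unknown, although the study states a mean coverage per tissue.

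The regions and CpGs below are shown as sequence because they are among those named later and, in all but the first pair, hold one of the motifs described later. All are the mm9 plus strand, written 5′ to 3′ in lower case, with all tested CpGs and the letters of the motif (AGATAA or its complement TTATCT for sites higher in muscle, CAGCTG for sites higher in heart) in capitals.
Chst8 intron, chr7:35483535-35483605, higher in heart: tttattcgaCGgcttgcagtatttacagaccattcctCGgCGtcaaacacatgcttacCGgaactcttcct
Upstream of Slc38a4, chr15:96943112-96943181, higher in heart: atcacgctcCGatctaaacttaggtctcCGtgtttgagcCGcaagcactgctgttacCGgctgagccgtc
Upstream of 1700067P10Rik, chr17:48185048-48185158, higher in heart: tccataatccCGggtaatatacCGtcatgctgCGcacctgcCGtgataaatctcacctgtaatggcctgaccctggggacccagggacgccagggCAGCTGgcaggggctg
Upstream of Myo10, chr15:25539063-25539292, higher in muscle: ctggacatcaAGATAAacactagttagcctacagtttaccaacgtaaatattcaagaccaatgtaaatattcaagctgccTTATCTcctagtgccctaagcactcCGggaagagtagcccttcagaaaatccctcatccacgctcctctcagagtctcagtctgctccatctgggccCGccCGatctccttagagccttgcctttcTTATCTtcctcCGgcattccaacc
Nearest to Ajap1, chr4:152602200-152602268, higher in muscle: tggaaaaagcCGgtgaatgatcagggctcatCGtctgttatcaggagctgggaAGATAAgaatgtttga
Nearest to Hs6st1, chr1:35744187-35744251, higher in muscle: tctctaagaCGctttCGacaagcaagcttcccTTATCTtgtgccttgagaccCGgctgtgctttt
Nearest to Gm4792, chr10:93716009-93716117, higher in muscle: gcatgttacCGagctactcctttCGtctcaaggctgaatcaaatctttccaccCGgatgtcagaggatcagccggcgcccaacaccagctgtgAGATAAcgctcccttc
Upstream of Ak3, chr19:29126215-29126359, higher in muscle: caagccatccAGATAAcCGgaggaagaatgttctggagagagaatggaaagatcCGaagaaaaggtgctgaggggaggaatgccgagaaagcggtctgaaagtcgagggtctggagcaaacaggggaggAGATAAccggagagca

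Methylation was higher in heart at most CpGs that differed. By limma, with a limit of 0.1 on the Benjamini-Hochberg adjusted p and a difference over 5 percentage points, 578 of 24134 CpGs (2.39%) were called. Of these, 512 (2.12% of those tested) were higher in heart and 66 (0.273%) were higher in muscle, so that 88.6% of the calls lay on the heart side, beside 59.0% of all tested CpGs. The called differences were 20.8 to 70.8 percentage points in size with a median of 41.1, and 525 were over 30. At the CpGs higher in heart the median level was 73.9% in heart and 28.3% in muscle, and at those higher in muscle it was 25.2% in heart and 67.3% in muscle. Most of these CpGs were thus partly methylated in the lower tissue. Under 20% in muscle were 159 of the 512, beside 6812 of all 24134 tested CpGs (28.2%). The calls of each direction fell at 401 and 59 places at least 1 kb apart. The heart and muscle libraries did not overlap at any of the 578 called CpGs, which also held for 11.6% of all tested CpGs.

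The count of single CpGs was unsteady. It fell to 138 without heart replicate 1, to 282 without muscle replicate 1, to 315 without muscle replicate 2, to 329 without heart replicate 2, to 335 without muscle replicate 5 and to 48 (45 higher in heart) without the 3 libraries that lacked most values, and no CpG was called on the logit scale, where 2604 had an unadjusted p under 0.05, against 3158 on the fraction scale.

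**Figure D1:**
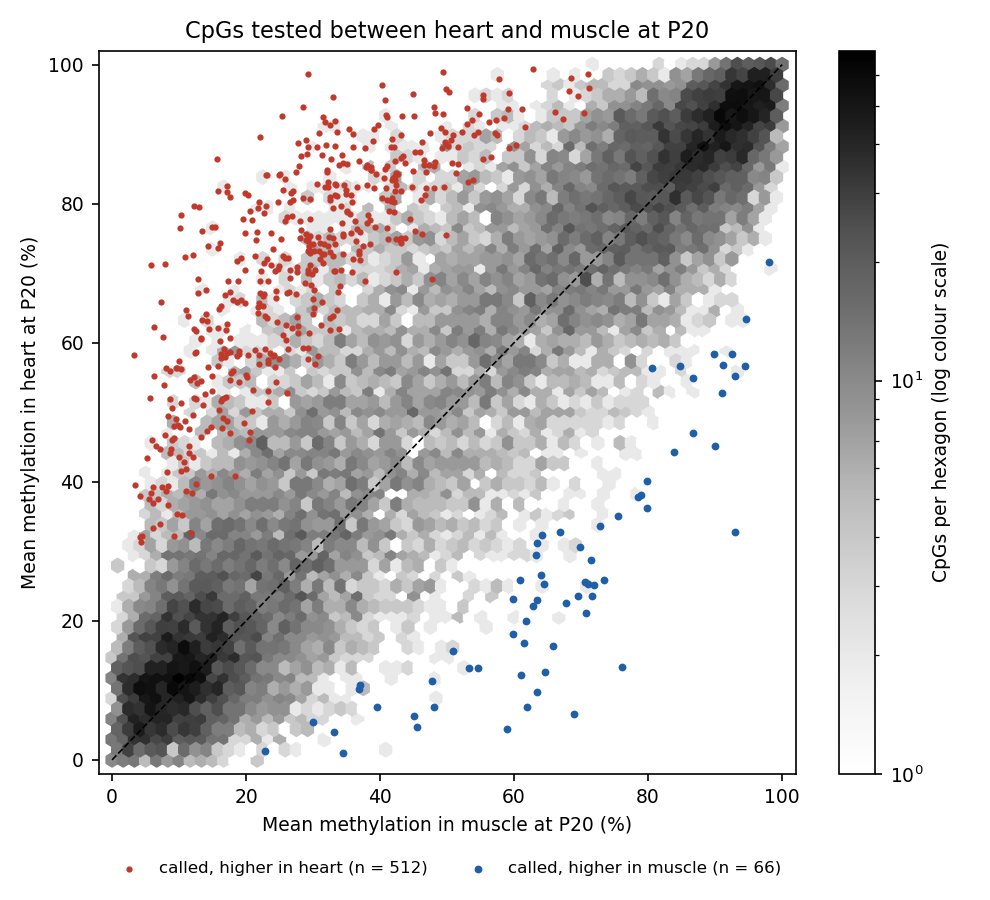
Mean methylation (%) of the 24134 tested CpGs in muscle (x axis, up to 4 libraries) and heart (y axis, up to 5 libraries) at P20. Grey hexagons count CpGs on a log colour scale, red points are the 512 CpGs called higher in heart and blue points the 66 called higher in muscle. The red points lie far above the dashed line of equal methylation and outnumber the blue points below it.

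Neighbouring CpGs share reads, so CpGs at most 100 bp apart were also joined into 2482 regions of at least 3 CpGs. Of these, 188 (7.57%) were called, with 157 (6.33%) higher in heart and 31 (1.25%) higher in muscle. The called regions held 3 to 10 CpGs, and the median difference was 29.8 percentage points for those higher in heart and 28.1 for those higher in muscle. In 116 of the 188 at least 1 CpG was called on its own as well. The regions were steadier than the CpGs: 112 were called (94 higher in heart) without the 3 sparse libraries and 71 on the logit scale, although the count fell to 99 without heart replicate 1 and to 122 without heart replicate 2.

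Averaged over the 2743 CpGs with all 9 values, methylation was 49.0%, 47.1%, 46.8%, 49.6% and 46.1% in heart replicates 1 to 5 and 46.3%, 42.9%, 45.0% and 45.9% in muscle replicates 1, 2, 3 and 5. Heart replicate 5 lay below muscle replicate 1, and every other heart value lay above every muscle value. The means were 47.7% ± 1.52 (SD, n = 5) and 45.0% ± 1.51 (SD, n = 4), so heart was 2.69 percentage points higher (two-sided p = 0.0317 in an exact permutation test, where 126 arrangements allow no p under 0.0159). Over all tested CpGs with a value the difference was 5.70 percentage points (exact permutation p = 0.0159), where each library mean covers its own 8336 to 24132 CpGs. Without muscle replicate 2, which had 38.4% over 13782 CpGs against 48.2% to 48.8% in the other muscle libraries, it was 3.18 (exact permutation p = 0.0357, the smallest that 56 arrangements allow). For library medians over the 2743 CpGs the difference was 6.39 (exact permutation p = 0.0317). Without 1 library the exact permutation p ran from 0.0286 to 0.0714.

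Described first are the called regions of largest difference among those whose heart and muscle libraries do not overlap, which holds for 14.3% of all tested regions. The 8 such regions higher in heart lay within Chst8, Pip4k2b and Iqcj or, for the others, between genes. The region in an intron of Chst8, a sulfotransferase that modifies hormone glycans, was 94.0%, 74.3% and 98.1% methylated in heart replicates 1 to 3 and 46.3%, 35.4% and 17.0% in muscle replicates 1 to 3. All 3 heart values exceeded all 3 muscle values, and the difference was 55.9 ± 9.10 percentage points (SE, limma adjusted p = 0.0168). Intergenic CpGs 56.8 kb upstream of Slc38a4, an amino acid transporter that is imprinted in mouse, were 80.1%, 76.0%, 73.3% and 81.8% methylated in heart replicates 1 to 4 and 31.0%, 10.9%, 34.5% and 32.6% in the 4 muscle libraries. Each of the 4 CpGs of this region was called, and their mean differed by 50.6 ± 5.59 percentage points (SE, limma adjusted p = 0.00222).

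In an intron of Pip4k2b, a lipid kinase of the phosphoinositide pathway, muscle was almost unmethylated at 9.5%, 3.0%, 6.7% and 8.3%, while heart replicates 1, 2, 3 and 5 had 59.4%, 65.6%, 55.4% and 46.7%. The difference of 49.9 ± 4.62 percentage points (SE, limma adjusted p = 0.00115) had the smallest adjusted p of the 16 regions described here. The largest difference of all regions, 60.1 ± 7.46 percentage points (SE), lay 28.1 kb downstream of the start of Arl6, a small GTPase of primary cilia, where 3 CpGs were 78.1% ± 11.6 (SD, n = 3) methylated in heart and 18.03% ± 11.0 (SD, n = 4) in muscle. The others lay 105.2 kb upstream of B3gat2 (55.1 percentage points), 18.1 kb upstream of Spsb4 (54.2), 41.5 kb upstream of 1700067P10Rik (52.0) and across a coding exon and an intron of Iqcj, 0.1 kb from a start site (50.8).

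**Figure D2:**
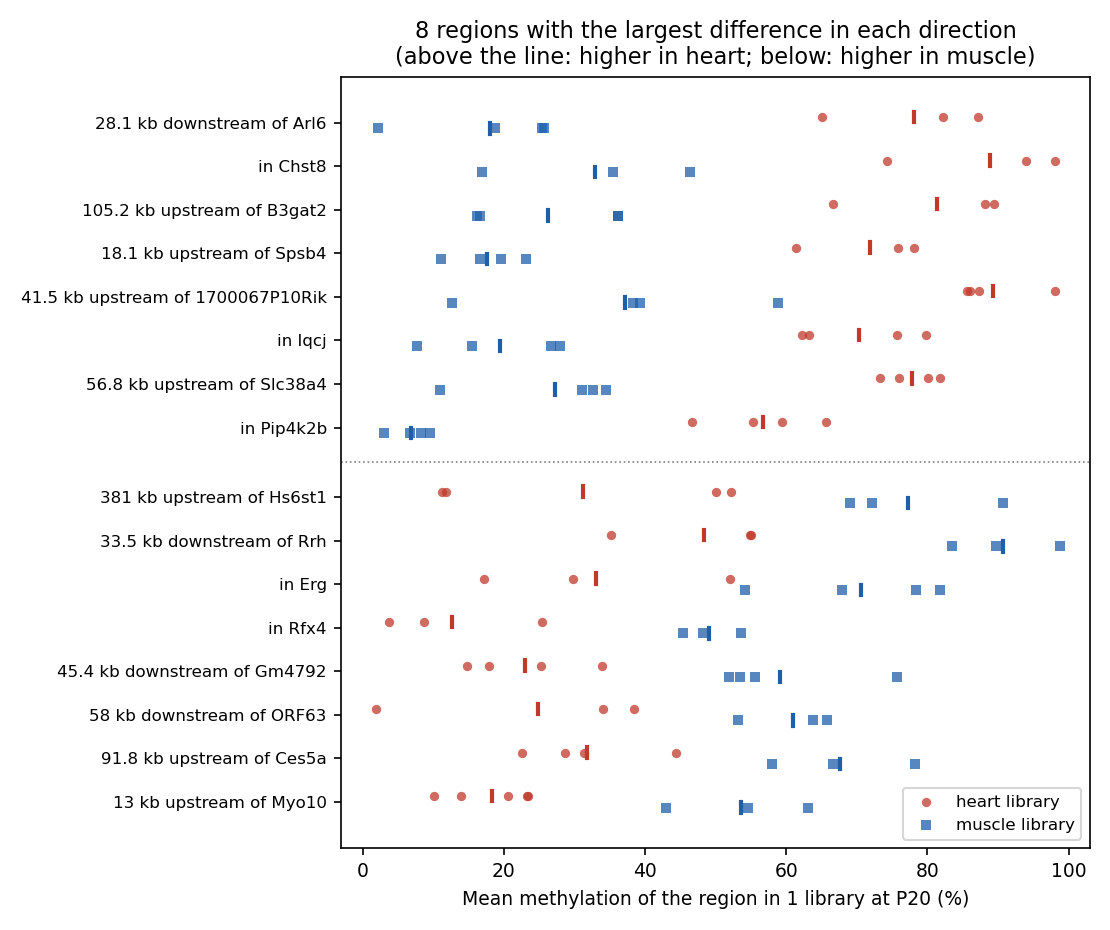
Mean methylation (%) of the 8 regions with the largest difference in each direction, 1 point per library with a value (red circles heart, blue squares muscle), with vertical bars at the tissue means. The 16 regions were chosen among those without overlap of the libraries, and in the Erg region the nearest heart and muscle libraries lie at 52.0% and 54.2%.

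The region 13 kb upstream of Myo10, an unconventional myosin that travels to the tips of filopodia, was the one with a value in all 5 heart libraries. Its 4 CpGs averaged 20.6%, 23.5%, 10.1%, 23.3% and 13.9% in heart and 43.0%, 54.5% and 63.1% in muscle replicates 1, 3 and 5. Like all regions chosen here it had no overlap of the tissues, and the difference was −35.3 ± 5.49 percentage points (heart minus muscle, SE, limma adjusted p = 0.00817). The 3 CpGs nearest to Hs6st1, which adds sulfate to heparan sulfate, lay 381 kb from its start site and differed most (−46.0 percentage points, heart minus muscle). Heart was divided there, since replicates 1 and 2 had 11.2% and 11.8% whereas replicates 3 and 5 had 52.1% and 50%, and the call was lost in 5 of the 9 fits that left out 1 library. The others were nearest to Rrh (−42.3), Rfx4 (−36.4), Gm4792 (−36.1), ORF63 (−36.1) and Ces5a (−35.9), of which the Rfx4 region lay in an intron of this transcription factor gene. The ORF63 call was lost in 7 of the 9 fits without 1 library. On the logit scale 4 of the 8 regions higher in muscle, those of Hs6st1, Rfx4, ORF63 and Erg, were not called (limma adjusted p = 0.107 to 0.275).

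Erg, an ETS transcription factor of endothelial cells, held called regions of both directions. About 0.9 kb downstream of one of its start sites, 4 intronic CpGs at chr16:95680015-95680060 were 52.0%, 29.8% and 17.3% methylated in heart replicates 1 to 3 and 54.2%, 67.9%, 78.5% and 81.8% in the 4 muscle libraries. In the same gene, 3 intronic CpGs at chr16:95694654-95694702 had 81.6%, 90.9%, 77.8% and 83.9% in heart replicates 1 to 4 and 50.6%, 21.9%, 65.3% and 28.8% in muscle. Heart was thus lower at the first region (−37.6 ± 9.23 percentage points, SE, limma adjusted p = 0.0597) and higher at the second (41.9 ± 8.72, adjusted p = 0.0298). The first call was lost in 5 of the 9 fits without 1 library, and at P1, P5 and P15 the same CpGs differed by −15.7, −2.51 and −5.66 percentage points and were not called. Btbd11 also held calls of both directions, with 4.03% in heart against 33.1% in muscle at one CpG and 86.3% against 46.5% at another.

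Outside these regions, the single CpGs with a value in all 9 libraries and the largest differences lay mostly between genes. None of the 12 CpGs chosen in this way was called on the logit scale, and 1 was called without the 3 sparse libraries. Those higher in heart were led by a CpG in the promoter of the non-coding gene Gm13553, 10.2 kb downstream of the start of the LIM homeobox gene Lhx3. It was 62.9%, 96.7%, 54.5%, 80% and 50% methylated in heart and 17.6%, 20.0%, 10.5% and 21.1% in muscle, which gave a difference of 51.5 ± 9.13 percentage points (SE, limma adjusted p = 0.0373). The heart values were widely spread but all above those of muscle, as the tissues were separate at every called CpG. Others were nearest to Btbd3 (50.6 percentage points) and Sall3 (50.1) or lay in an untranslated exon part of Parp16 (45.9).

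Among these complete CpGs, the one higher in muscle by the largest amount lay 254.1 kb from the start of Ajap1, an adherens junction protein. Heart had 18.52%, 21.1%, 0%, 35.7% and 6.7% and muscle 58.1%, 84.6%, 37.1% and 83.3%, so the groups were separate by a narrow gap, and the difference was −49.4 ± 10.7 percentage points (SE, limma adjusted p = 0.0618). This call was lost in 7 of the 9 fits without 1 library. An intergenic CpG nearest to Gm8226 was tight in heart, at 13.2% ± 1.45 (SD, n = 5), and 54.5% ± 14.7 (SD, n = 4) in muscle. The others were an intronic CpG of Lrrc27 (−45.7), an intergenic CpG nearest to Speer2 (−45.2), a coding CpG of Exosc1, a subunit of the RNA exosome (−38.2), and a CpG 3.8 kb upstream of Ak3, a mitochondrial adenylate kinase (−34.1). The Exosc1 and Ak3 calls were lost in 5 and 4 of the 9 fits without 1 library.

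Some genes held calls of one direction at several places over 1 kb apart, all higher in heart, where 2.12% of all tested CpGs were called in that direction. The long annotation Gm20388 had the most places, 6, with 7 called CpGs of 212 tested. Camta1, a calmodulin-binding transcription activator, had 4 called CpGs of 24 tested at 3 places within 181.7 kb, and Itga9, the integrin alpha 9 chain, had 3 of 14 at 3 places. Slit3, a secreted guidance ligand, had 4 of 14 at 2 places, with mean levels of 76.9% in heart and 37.9% in muscle. Gfra1, a receptor for glial cell line-derived neurotrophic factor, had 2 of 13 with 80.04% in heart and 31.2% in muscle, and Tiam1, an activator of the Rac GTPase, had 2 of 8 with 68.2% and 31.1%. These genes were named after their counts were seen.

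Lists of heart, muscle, patterning, imprinted and cell type marker genes were unevenly covered. Of 319 entries in 13 gene lists, 141 had a tested CpG in the gene or within 5 kb upstream, and among the 593 CpGs of all lists 2 were called higher in heart and 3 higher in muscle (0.843%, beside 2.39% of all tested CpGs). An unadjusted p under 0.05 was found at 11.0% of the list CpGs and at 13.1% of all. Cardiac transcription factors (15 of 22 genes with 83 CpGs), cardiac contractile, hormone and ion channel genes (9 of 32, 39 CpGs), skeletal contractile and calcium handling genes (13 of 35, 37 CpGs) and genes of all striated muscle (7 of 26, 42 CpGs) had no called CpG in limma, while 11, 3, 5 and 2 of these CpGs had an unadjusted p under 0.05. Their median differences were 4.57, −0.233, 6.75 and 2.76 percentage points, beside 2.35 over all tested CpGs. No CpG was called in the lists of limb and body position factors (26 of 37 genes, 111 CpGs, 10 at an unadjusted p under 0.05), blood and macrophage (3 of 18, 7 CpGs, 0), fibroblast and smooth muscle (2 of 16, 3 CpGs, 2), adipocyte (4 of 12, 27 CpGs, 2) and Schwann cell and neuron markers (5 of 12, 8 CpGs, 0). Skeletal myogenic transcription factors (8 of 24, 45 CpGs, 5) and endothelial markers (8 of 16, 29 CpGs, 7) held 1 call each, and the 24.1% of endothelial CpGs at an unadjusted p under 0.05 stands beside 13.1% of all. Of these 7 endothelial CpGs, 6 lay in Erg, in the 2 regions of opposite direction described above. Cell type markers of blood, fibroblasts and nerve were thus almost unmeasured, and the part of cell mixture in the results was not tested.

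The 5 called CpGs in the lists were counted for Pax7, Hoxa3, Hoxb5, H19 and Erg. Pax7, the transcription factor of muscle satellite cells, was tested at 1 intronic CpG, 70.9 kb downstream of a start site, with 4.8%, 0%, 0%, 0% and 0% in heart and 27.0%, 41.7%, 30% and 39.1% in muscle. The CpG was all but unmethylated in heart, and the difference was −33.5 ± 4.84 percentage points (SE, limma adjusted p = 0.0228). A CpG counted for Hoxa3, a patterning gene of the anterior body, had its nearest coding start site in Hoxa5, 4 kb away. It had 18.8%, 0%, 38.5% and 10.0% in heart replicates 1, 2, 3 and 5 and 60.6%, 63.6% and 60% in muscle replicates 1 to 3, a difference of −44.6 percentage points. In an exon of Hoxb5 the levels were 5.40% ± 6.27 (SD, n = 4) in heart and 30.1% ± 6.85 (SD, n = 4) in muscle. The 2 Hox calls were both higher in muscle, among 65 Hox CpGs in 25 genes (3.08%, beside 2.39% of all tested CpGs called in either direction and 0.273% higher in muscle). An unadjusted p under 0.05 was found at 7 Hox CpGs (10.8%, beside 13.1%), and the median difference was −3.40 percentage points, beside 2.35 over all.

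H19, a maternally expressed imprinted non-coding RNA, was the imprinted gene with a call in the gene or within 5 kb upstream. One of its 2 tested CpGs was 87.9%, 76.1%, 75% and 90% methylated in heart replicates 1 to 4 and 23.9%, 47.1%, 43.8% and 41.9% in muscle. All 4 heart libraries lay above all 4 muscle libraries, as the tissues were separate at every called CpG. The difference was 43.1 ± 6.83 percentage points (SE, limma adjusted p = 0.0309). No other CpG was called among 97 tested in 16 imprinted genes (1.03%, beside 2.39% of all), and 11.3% had an unadjusted p under 0.05, beside 13.1%. At Zrsr1, whose 19 tested CpGs gave the largest set after Mcts2, the means were 37.5% in both tissues. At Mcts2, with 21 CpGs, they were 43.0% in heart and 26.0% in muscle, and the median differences were 14.8 percentage points at Gnas, −13.3 at Nap1l5 and 11.8 at Slc38a4, with no call under this rule. By nearest start site within 100 kb, 4 of 93 CpGs of imprinted genes were called (4.3%), and these were the 4 CpGs of the region upstream of Slc38a4.

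When CpGs were assigned to the nearest coding start site within 100 kb, 163 of the 319 entries had a tested CpG and 18 calls were found among 749 CpGs (2.40%, near the 2.39% of all tested CpGs), 13 of them higher in heart. The sites below are single members and not a result about the lists. A CpG 26.4 kb downstream of the start of Hand2, a basic helix-loop-helix factor of the developing ventricles, was 72.1%, 93.3%, 40.9% and 75% methylated in heart replicates 1 to 4 and 21.1%, 18.8%, 30.8% and 18.52% in muscle. Heart was higher by 48.1 ± 10.0 percentage points (SE). The opposite was seen 18.9 kb upstream of Tbx3, a T-box repressor of the conduction system, with 10.0%, 0% and 4.2% in heart replicates 1 to 3 and 45.5%, 41.2% and 50% in muscle replicates 1, 3 and 5. The difference at Tbx3 was −40.8 ± 6.45 percentage points (SE, limma adjusted p = 0.0433), but −7.29, −17.4 and −2.97 at P1, P5 and P15. For skeletal muscle genes, a CpG 5.8 kb upstream of Chrnd, the delta subunit of the acetylcholine receptor, was higher in heart (47.6% against 11.4%), and a CpG 57.1 kb downstream of the start of Xirp2, an actin-binding protein of striated muscle, was higher in muscle (70.6% against 25.6%). Near limb and body position factors 6 of 181 CpGs were called (3.31%), all higher in heart, as were 88.6% of all calls. They lay near Prrx1 (36.7 percentage points), Lmx1b (37.0), Foxc2 (28.4 and 33.6) and Six2 (49.1 and 58.7). This assignment was chosen after the first had been seen.

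The called CpGs lay away from promoters. Of the 512 higher in heart, 48.2% were intergenic, 38.7% intronic, 9.57% exonic and 3.52% within 1 kb upstream of a start site, and of the 66 higher in muscle the shares were 53.0%, 31.8%, 10.6% and 4.55%. Over all tested CpGs they were 40.3%, 33.2%, 18.8% and 7.67%. The median distance to the nearest coding start site was 33.8 kb for calls higher in heart and 33.5 kb for calls higher in muscle, beside 16.1 kb for all. Local CpG number was nearly the same, with a median of 9 CpGs within 200 bp on each side for calls higher in heart, 8.5 for calls higher in muscle and 10 for all, and the GC share was 50.2%, 49.8% and 52.2%.

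Short motifs near the calls differed with the direction. Motifs known for factors of heart or muscle were searched on both strands in the 201 bp around each CpG. AGATAA lay near 20 of the 66 CpGs higher in muscle (30.3%), near 20 of the 512 higher in heart (3.91%) and near 6.91% of all tested CpGs with a reference sequence. CAGCTG, a form of the E-box, lay near 117 of the 512 CpGs higher in heart (22.9%), near 9 of the 66 higher in muscle (13.6%) and near 13.9% of all. Thus CpGs less methylated in heart had AGATAA nearby more often than all CpGs, and CpGs less methylated in muscle had CAGCTG nearby more often. With 1 CpG per place the shares were 28.8% of 59 and 4.24% of 401 for AGATAA and 11.9% and 22.7% for CAGCTG. In regions with 100 bp on each side, AGATAA was found in 9 of 31 higher in muscle (29.0%), 6.37% of 157 higher in heart and 7.93% of all, whereas CAGCTG no longer separated the directions, with 32.3% and 28.0%, beside 18.3% of all regions.

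The general E-box CANNTG, of which CAGCTG is a form, was near 75.2% of the CpGs higher in heart, 69.7% of those higher in muscle and 64.8% of all. GGAATG, a site of TEAD factors, was near 15.8% and 19.7%, beside 11.3%, and AAGTGG, a site of NKX2 factors, was near 10.4% and 15.2%, beside 11.8%. GGTGTGA, a T-box motif, was near 5.08% and 1.52%, beside 3.32%, and TATTTATA, a MEF2 core, was near 1.17% and 0%, beside 0.624%. These are matches of letters, and binding of a factor was not measured.

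The AGATAA CpGs were spread over the genome. They included 2 CpGs of the Myo10 region, which is printed above with 3 matches, 2 CpGs near Ajap1, 2 near Gm4792 and 1 each in Cdh4, Glra1, Btbd11 and Cmtm8. The CpG in Cdh4, a cadherin gene, was 35.1% ± 10.6 (SD, n = 5) methylated in heart and 75.5% ± 17.8 (SD, n = 3) in muscle.

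Libraries of P1 and P15, which had no part in these calls, gave a gradient in the same direction. P5 was not binned. When CpGs were ordered by their difference at P1, AGATAA was near 26.4% of the 466 CpGs that were over 30 percentage points lower in heart and near 5.41% of the 9128 within 5 points of each other. At P15 the shares were 20.5% of 415 and 6.03% of 7958, and at P20 they were 23.5% of 255 and 6.15% of 8416. For CAGCTG the share rose in the other direction, from 12.2% of CpGs within 5 points to 24.0% of the 1239 CpGs over 30 points higher in heart at P1, from 11.5% to 24.3% at P15 and from 12.3% to 22.8% at P20. The CpGs in these bins are the same loci at each age and neighbours share a window, so the values are a description.

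**Figure D3:**
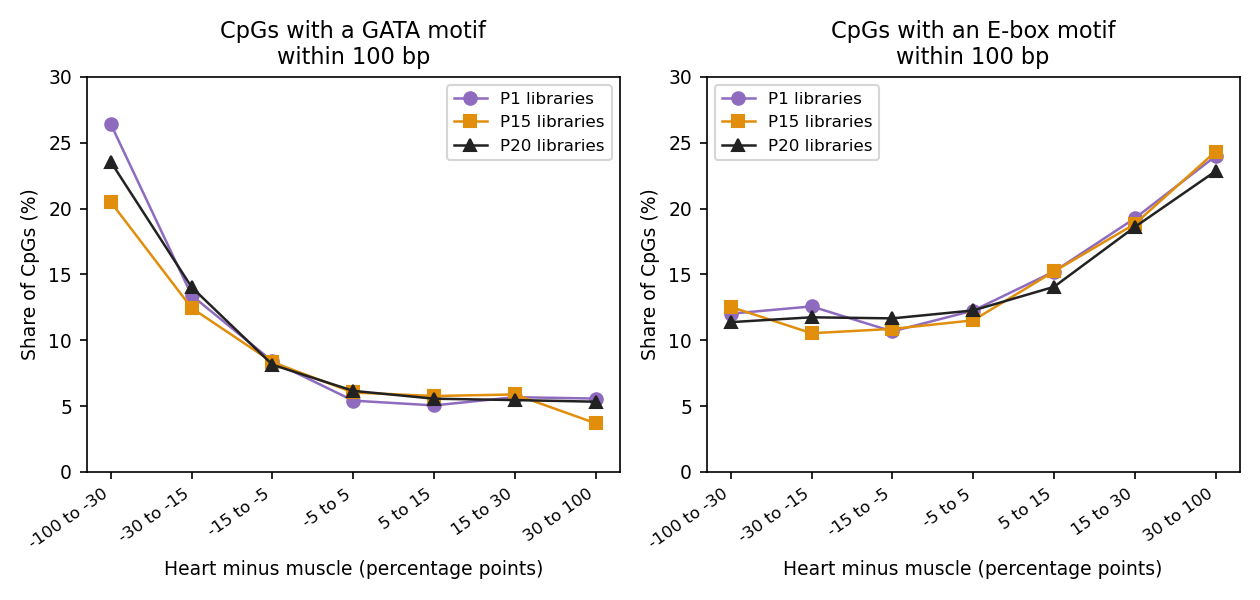
Share of CpGs (%) with the GATA motif (left) or the E-box motif (right) within 100 bp, by bins of the heart minus muscle difference (percentage points) measured in the P1, P15 or P20 libraries. The GATA share is 20.5% to 26.4% in the bin most strongly lower in heart, and the E-box share is 22.8% to 24.3% in the bin most strongly higher in heart.

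Most regions called at P20 kept their direction at P1, P5 and P15, and fewer of them were called there. Among all tested regions, 347 were called higher in heart and 227 higher in muscle at P1, and 84 and 53 at P5. At P15 these counts were 198 and 82, beside 157 and 31 at P20. Called CpGs numbered 2160 and 1016 at P1, 239 and 197 at P5, and 796 and 236 at P15, beside 512 and 66. More regions and CpGs were thus called at P1 and P15 than at P20, and the heart side was proportionally larger at P20. E18 and P10 were not analysed here. Of the 157 regions higher in heart, 143 were higher in heart at P1, 114 of 126 with values at P5 and 155 of 156 at P15, with median differences of 24.0, 19.4 and 27.8 percentage points. Limma on the libraries of each of these ages called 101 of them at P1, 43 at P5 and 82 at P15 in the same direction, where 13.8%, 4.17% and 8.01% of all regions were called higher in heart. Of the 31 regions higher in muscle, 30 were higher in muscle at P1, 28 of 28 at P5 and 28 of 30 at P15. Of these, 22, 9 and 16 were called, where 9.0%, 2.63% and 3.32% of all regions were called higher in muscle.

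Only 2 of the 188 regions were called in the opposite direction at P1, P5 or P15, both of them at P1. In an intron of Hs2st1, a heparan sulfate 2-O-sulfotransferase, 3 CpGs were 36.6% methylated in heart and 56.6% in muscle at P1 (limma adjusted p = 0.0307), and 59.6% and 28.5% at P20 (adjusted p = 0.0305). Nearest to Atp5g3 the levels were 49.5% and 67.8% at P1 and 78.4% and 62.2% at P20. At single CpGs, 94.9%, 93.6% and 97.6% of the calls higher in heart kept their direction at P1, P5 and P15, beside 53.6%, 47.0% and 57.0% of all CpGs. Called again in the same direction were 331 of 508, 76 of 419 and 208 of 506, where 8.97%, 1.24% and 3.36% of all CpGs were called higher in heart. For calls higher in muscle the shares were 95.5%, 93.3% and 90.9%, beside 46.4%, 52.9% and 42.9%, and 46 of 66, 19 of 60 and 19 of 66 were called again, where 4.22%, 1.02% and 0.996% of all CpGs were called higher in muscle.

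**Figure D4:**
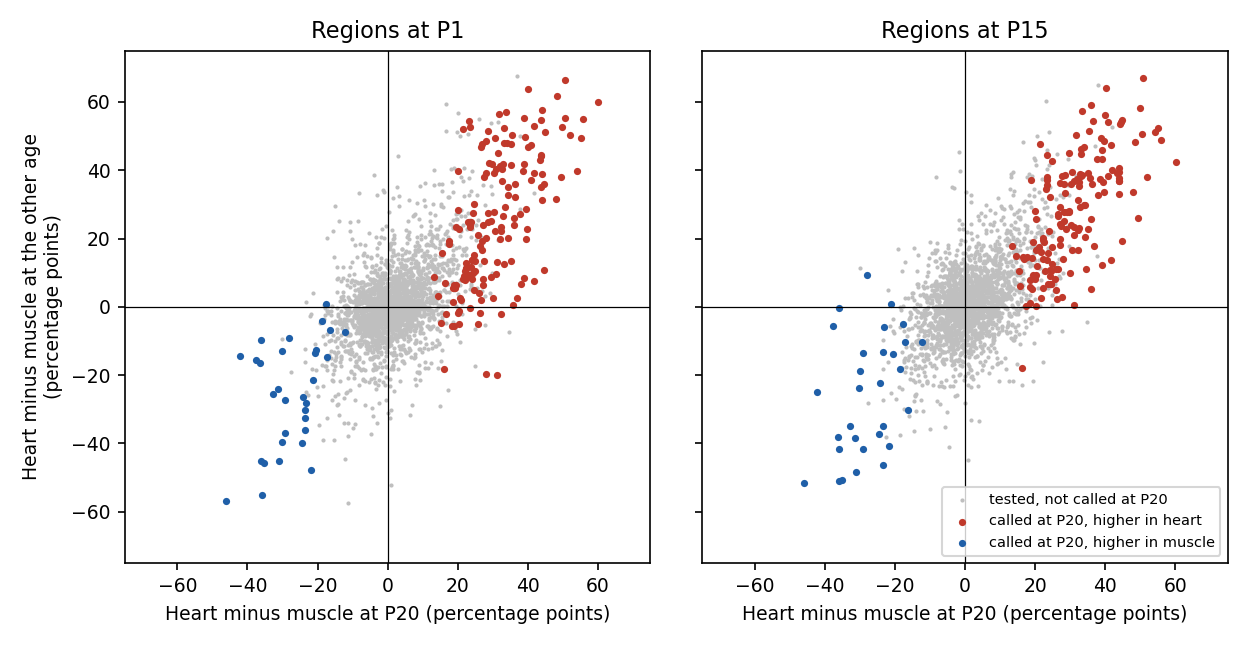
Heart minus muscle difference (percentage points) of each region at P20 (x axis) against the same difference at P1 (left) and P15 (right), with regions called at P20 higher in heart in red and higher in muscle in blue. At P15, 155 of 156 red points lie above 0 and 28 of 30 blue points below it, and the libraries of P1 and P15 had no part in the calls.

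Averaged over the 512 CpGs higher in heart, the 5 heart libraries of P20 lay between 70.2% and 72.2% and the 4 muscle libraries between 24.7% and 32.5%. At P1 the 4 heart libraries lay between 61.1% and 65.0% and the 5 muscle libraries between 27.5% and 36.4%, and at P15 the ranges were 61.5% to 68.3% and 23.4% to 35.9%. Every heart library was above every muscle library at P1, P5 and P15, and also at P20, where the choice of CpGs largely fixes this. Averaged over the 66 CpGs higher in muscle, heart ranged from 27.6% to 33.2% at P1 and from 23.2% to 30.05% at P20, and muscle from 60.1% to 70.3% and from 62.6% to 71.5%. The CpGs were chosen at P20, so the wider gap at that age is fixed in part by the choice. Tested directly over all CpGs, a change of the heart minus muscle difference between P1 and P20 was called at 0 of 24079 CpGs (0%) in limma, with 1880 at an unadjusted p under 0.05 and 0 called on the logit scale.

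Some of the strongest sites nevertheless had small differences at other ages. At the Gm4792 region heart replicates 1, 2, 4 and 5 had 25.3%, 14.8%, 33.9% and 17.9% at P20 and muscle 53.4%, 55.6%, 75.7% and 51.9%, while the difference was −9.71, −15.9 and −0.225 percentage points at P1, P5 and P15. The CpG nearest to Sall3 was 63.4%, 65.1%, 71.4%, 54.5% and 80% methylated in heart and 21.5%, 22.2%, 11.1% and 12.5% in muscle at P20, and its difference of 50.1 points compared with 19.8, −24.9 and 12.5 at P1, P5 and P15. By contrast, the 8 regions most strongly higher in heart were all called at P1 and at P15, by 39.7 to 66.3 and 38.1 to 67.0 percentage points, while at P5 4 of the 6 with a value were called and the smallest difference was 20.1. The Myo10 region differed by −45.6, −43.1 and −50.7 at P1, P5 and P15.

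**Figure D5:**
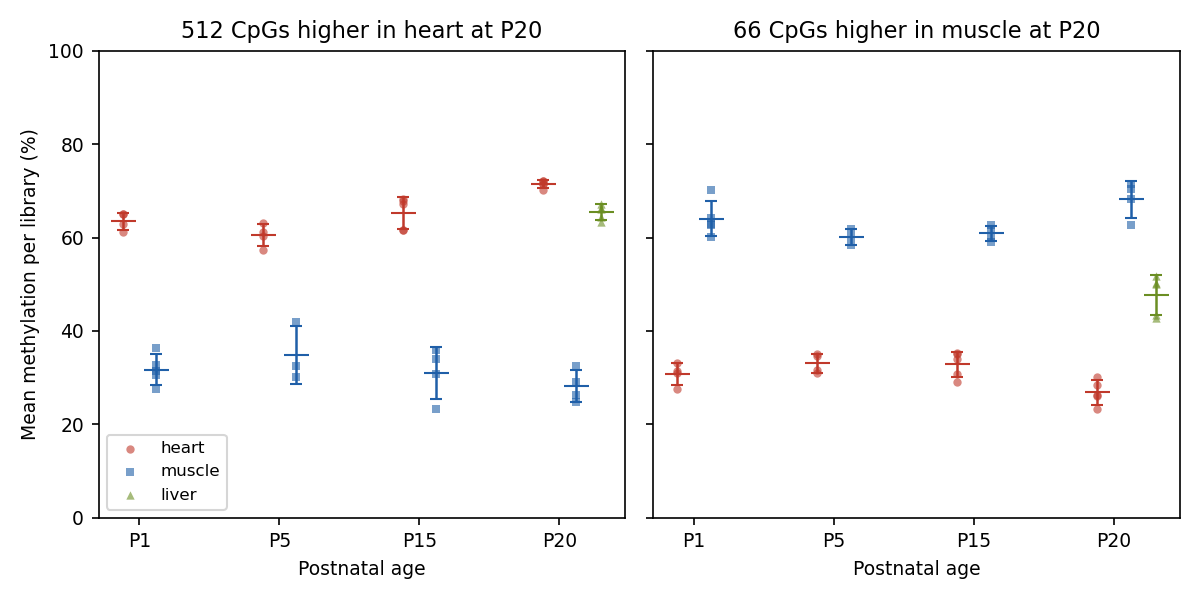
Mean methylation (%) per library over the 512 CpGs called higher in heart at P20 (left) and the 66 called higher in muscle (right), by age, for heart (red circles), muscle (blue squares) and P20 liver (green triangles), with the mean and SD of the libraries. Heart and muscle libraries are separate at each of the 4 ages plotted in both panels, which at P20 follows largely from the choice of CpGs. Liver lies at 65.5% on the left and 47.6% on the right.

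The called CpGs were also measured in P20 liver. Of the CpGs higher in heart, 468 had a value in at least 3 of the 5 liver libraries, and liver averaged 65.5% there against 71.5% in heart and 29.1% in muscle. Liver was nearer to heart at 388 of them (82.9%), beside 55.8% of all 21314 such CpGs. Of the 64 CpGs higher in muscle, liver was nearer to heart at 31 and nearer to muscle at 33, with means of 48.4% in liver, 27.2% in heart and 67.1% in muscle. Single sites differed in this: liver was 11.2% at the Myo10 region and 14.4% at the Ajap1 CpG, near heart, but 64.5% at the Gm4792 region and 65.7% at the first Erg region, near muscle. At the Pip4k2b region liver was 18.7%, nearer to muscle, whereas at the other 7 leading regions higher in heart it was nearer to heart.

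The tables of the 2 tissues held different CpGs after the authors' filters, which bears on which CpGs could be compared. Of the CpGs in the heart table alone, 16976 had at least 3 heart values at P20, with a median of 58.0%, and of those in the muscle table alone 11551 had at least 3 muscle values, with a median of 12.3%. By the stated filter, CpGs under 10% in all samples of all ages had been removed, and whether this was done within each tissue is not stated. Over the libraries used here, 297 CpGs of the heart table and 833 of the muscle table were under 10% throughout. The part of this filter in the share of calls was not tested.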

How the data were processed

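The authors digested DNA with MspI, sequenced bisulfite-treated RRBS libraries, aligned the reads to mm9 with Bismark 0.7.6 and Bowtie2, and deposited for each CpG and library the fraction of reads that were methylated. CpGs under 10 reads were missing. CpGs missing in over 20% of samples, or under 10% methylated in all samples of all ages, had been removed, and the tables are given per tissue. In the libraries used here, 11678 CpGs of the heart table and 1002 of the muscle table were still missing in over 20%, and 297 and 833 were under 10% throughout. Of the heart and muscle tables, 9 columns matched no sample and were not used here.

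Fractions were compared as percentages with limma 3.58.1 (R 4.3.3; lmFit, eBayes, no covariate), taking a Benjamini-Hochberg adjusted p up to 0.1 together with differences over 5 percentage points. A library had a region value where at least 66.7% of the region's CpGs had one. Positions were annotated on mm9 with GENCODE genes, and 24055 tested CpGs matched a CpG of the reference while 79 had no reference sequence. Described were the 8 regions and 6 complete CpGs of largest difference per direction and, per gene list, the 4 genes of largest called difference. Of these CpGs, 2 are not reported here. The members and lists were chosen with earlier results of these data known. Tests at P1, P5 and P15, assignment to the nearest start site, motif bins and fits without the sparse libraries were added after seeing the data. So were the library means over all tested CpGs with a value and the fit without a block in the same 8 libraries as the block fit. Nothing in the labels states that replicate numbers pair heart with muscle. Deviations of same-numbered libraries correlated at −0.00621 to 0.0431, which cannot show whether a number marks the same animal. Alternatives changed the scale, limits, prior, libraries, strands, build (mm10), regions and block.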

Additional observations from a re-analysis of the deposited data

Results flagged for a closer look

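Among 88 groups of 4 or 5 libraries checked, 8 held a library that lay far outside the range of the others, where chance alone gives about 1 in 20. Muscle replicate 2 accounted for 4 of them. Its mean over all tested CpGs with a value was 38.4%, against 48.2% to 48.8% in the other muscle libraries, and its median over the CpGs with all 9 values was 33.3%, against 39.3% to 40%. It also had 10.9% at the Slc38a4 region, against 31.0% to 34.5%, and 0% at the CpG chr15:96943170 of that region, against 19.7% to 23.1%. Muscle replicate 2 lacked 42.9% of values at the tested CpGs, and the part of this in its lower means was not tested.

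Of the other values, heart replicate 5 had 98.1% at the region upstream of 1700067P10Rik (85.6% to 87.4% in the others), and muscle replicate 3 had 75.7% at the Gm4792 region (51.9% to 55.6%). Muscle replicate 1 had 15.8% at the CpG chr8:123672470 near Foxc2 (7.69% to 8.33%). Heart replicate 1 had 4.84% at the Pax7 CpG, where the other heart libraries were at 0%.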

How the results depend on the processing

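For the 16 leading regions and 12 leading CpGs, direction was read from raw means of tissues that did not overlap. The alternatives run on them could therefore not reverse it. All 12 CpGs lost their call on the logit scale and with the replicate block, and 11 did without the sparse libraries. Of the regions, 4, 3 and 2 lost it, in the same order. The count of 578 CpGs became 176 with unmoderated Storey q-values, 229 with a trended and robust prior, 241 at an adjusted p of 0.05, 75 where all 9 libraries had a value, 994 with all ages in one fit, 48 without the 3 sparse libraries, 0 on the logit scale and 138 to 517 without 1 library. The share higher in heart became 81.8% (Storey), 73.3% (all 9 values), 83.1% (all ages) and 93.8% (without the sparse libraries), and ranged from 86.3% to 90.9% without 1 library. No share exists where no CpG was called. Region counts became 71 on the logit scale, 112 at an adjusted p of 0.05, 91 over 30 percentage points, 112 without the sparse libraries, 37 with at least 5 CpGs, and 99 to 192 without 1 library. The change between P1 and P20 was called at 0 to 13 CpGs without 1 library, with 13 called without muscle P20 replicate 1, 5 each without muscle P20 replicate 2 or heart P20 replicate 1, and 1 each without muscle P20 replicate 5 or heart P20 replicate 3. The difference of library means was 1.25 points (exact permutation p = 0.0635) for the share of CpG values over 90%, and 1.99 to 3.10 without 1 library.

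With the replicate number as a block over 8 libraries, 0 CpGs were called (2673 at an unadjusted p under 0.05) and 105 regions, against 445 CpGs and 158 regions in the same libraries without the block. The cause of these changes was not tested. Of the 16 regions named, 13 were called in every fit without 1 library, and of the 12 CpGs, 7 were. Read depth per CpG is unknown.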
